A study of Mus musculus with 27 samples.

Results

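Genes of fat absorption and chylomicron formation were followed through the transcriptomes of cultured mouse intestinal epithelium. They were chosen by name and matched to the deposited Ensembl identifiers by symbol, which gave 10 of the 22524 genes counted in each library. The 10 genes are Apoa1, Apoa4, Apob, Apoc2, Apoc3, Mttp, Fabp1, Fabp2, Cd36 and Dgat1. RNA of 27 libraries was sequenced. Organoids were grown from crypts of the distal jejunum of 9 C57BL/6 mice, all male and 8 to 12 weeks old, with 3 cohoused littermates from each of 3 facilities, of which SR and SE were specific pathogen-free (SPF) and GF was germ-free. Each organoid culture (SR: Z908, Z909 and Z910. SE: Z911, Z912 and Z913. GF: Z917, Z918 and Z919) came from 1 mouse and was sequenced once without and once with TNF by its labels, at 5 ng/ml for 8 h. The reference cells were m-ICc12, a mouse small intestinal epithelial line, with the pairs M1 to M3 under the same labels, and untreated mouse embryonic fibroblasts (MEFs), R1 to R3. Organoids were kept in growth medium in a gel, and m-ICc12 cells in a medium with insulin and dexamethasone, so that cell type and medium cannot be told apart. Mice of one facility were littermates, so that facility and litter cannot be told apart either.

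Dietary triglyceride is split in the gut lumen, and its fatty acids enter enterocytes through the brush border, where CD36 takes part in uptake and fatty acid binding proteins carry them inside the cell. DGAT1 closes triglyceride synthesis at the endoplasmic reticulum, and the microsomal triglyceride transfer protein encoded by Mttp loads the lipid onto apolipoprotein B. The particle grows into a chylomicron that also carries apolipoproteins A-I, A-IV, C-II and C-III and leaves the cell at its base. Hepatocytes express many of the same genes, since the liver builds very low density lipoprotein with the same machinery.

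Values are read counts scaled to the library total (CPM) after TMM normalisation over the 27 libraries, and log2 fold changes come from edgeR's quasi-likelihood F-test with Benjamini-Hochberg adjustment over all genes tested. Only genes that reached 10 counts in 50% or more of some group's libraries entered a test, and an adjusted p under 0.05 made a call. The libraries held 6071103 to 43843615 counts on genes (median 30339856). At these depths 3 counts, the floor used here, lie between 0.0684 and 0.494 CPM, which covers counting error only.

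The treatment in the sample labels and in the names of the deposited data was opposite in each of the 12 pairs. All 5 TNF target genes examined (Nfkbia, Nfkb2, Tnfaip3, Relb and Birc3) had fewer CPM under the TNF label in 12 of 12 cultures. The label therefore goes against these genes, and every direction below is one of labels, written as the library labelled untreated or labelled TNF-treated. A second feature concerned liver transcripts. The summed level of 17 hepatocyte genes was 2067 CPM in the Z908 library labelled untreated, 190.7 CPM in the Z919 library labelled untreated and 22.4 to 77.2 CPM in the other 16 organoid libraries, and it was 169.8 CPM in MEF R2 against 0.499 and 2.11 CPM in R1 and R3. In m-ICc12 labelled untreated it was 10.9 and 20.2 CPM in M1 and M2, with 11 and 13 of the 17 genes over 3 counts, and 0.793 CPM in M3 with 2 of 17. Of the other 16 organoid libraries, Z917 labelled untreated was highest, with 77.2 CPM and 14 of the 17 genes over 3 counts. It stayed in the fits without Z908, Z919 and R2. Without Z908, Z919 and R2 the members called were still 8 of 9 against m-ICc12 and 9 of 9 against MEFs, among 8052 and 8349 genes called. Shares over all genes are not given for these fits, and with all cultures kept they were 60.9% and 67.2%. Other counts that change without these libraries are given beside the results. The organoids carried the epithelial markers of their label, with all 11 enterocyte markers, all 7 stem and proliferation markers, 5 or 6 of 6 Paneth cell markers and 6 or 7 of 7 goblet cell markers over 3 counts in each library. In m-ICc12, 8 or 9 of 11 enterocyte markers were over 3 counts (572.9 to 803 CPM summed, against 2097 to 6984 CPM in organoids). By gene, 10 of the 11 were called higher in organoids and 1 lower, with a median log2 difference of 8.29. The 8 mesenchymal markers summed to 2585 to 3917 CPM in m-ICc12, with 4 of them over 3 counts. Their sums were 13.8 to 40.0 CPM in organoids and 8482 to 11120 CPM in MEFs. By gene, 1 of 5 tested mesenchymal markers was higher in organoids than in m-ICc12, 2 lower and 2 not called. Against MEFs, 6 of 7 were lower in m-ICc12, so these sums do not stand for the whole lists.

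Apoa1, Apoc3 and Apoa4 lie side by side within 14.9 kb of chromosome 9 (GRCm38, 46228580 to 46243459), with Apoa1 at 46228580 to 46230466, Apoc3 at 46232933 to 46235636 on the opposite strand and Apoa4 at 46240696 to 46243459. The other 7 genes lie apart, Mttp at 138089854 to 138144968 and Fabp2 at 122895072 to 122899506 on chromosome 3, Cd36 at 17781690 to 17888801 on 5, Fabp1 at 71199827 to 71205023 on 6, Apoc2 at 19671579 to 19677941 on 7, Apob at 7977648 to 8016835 on 12 and Dgat1 at 76502015 to 76511953 on 15. Of the 10 genes, 8 had a promoter of 300 bases in the RefSeq table (GRCm38.p6), and Apoc3 and Dgat1 were not matched. The letters CAAAGTNCA, of the type bound by HNF4 factors, were searched on both strands and were found in 2 of these 8 promoters and in 1.41% of the 32851 mouse promoters of the same length. TATAAA was found in 2 of the 8 (Fabp1 and Apob, 13.6% of all promoters) and AGATAA in 0 of 8 (11.2% of all), and no promoter of the 8 held matches of more than 1 of these motifs. The bases before the annotated gene starts of the 2 genes with the HNF4-type letters are shown, with the matched bases in capitals. A link of these letters to the members' levels was not tested. The Apoa4 run covers 102 bases (plus strand, chr9:46240594-46240695) and ends just before the gene start given above (46240696). The RefSeq start lies further downstream, at 46240844, with the match 174 bases before it. The Fabp2 run covers 250 bases (plus strand, chr3:122894822-122895071), with the match in the opposite orientation 129 bases before the start. These matches are letters in a window and no measurement of binding.
Apoa4: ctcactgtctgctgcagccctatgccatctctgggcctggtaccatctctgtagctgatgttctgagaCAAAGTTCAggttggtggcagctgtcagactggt
Fabp2: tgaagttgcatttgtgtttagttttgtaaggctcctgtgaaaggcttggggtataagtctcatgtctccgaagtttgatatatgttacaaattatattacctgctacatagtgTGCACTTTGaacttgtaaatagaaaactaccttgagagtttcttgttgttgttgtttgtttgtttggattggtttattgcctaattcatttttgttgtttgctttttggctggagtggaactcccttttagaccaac

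The first comparison asked how strongly each cell type expressed the machinery, using the libraries labelled untreated. Since the label goes against the TNF target genes, these organoid and m-ICc12 libraries may be the treated ones. MEFs had only untreated libraries, so treatment may differ along with cell type in every comparison with MEFs here and below. With the organoid libraries of the other label, 9 members were called against MEFs, among 9454 genes called. The share over all genes tested is not given for that fit. Organoids expressed 9 of the 10 genes in every library of either label. In the 9 organoid libraries labelled untreated Apoa1 was at 552.3 ± 289.6 CPM (SD) and Fabp1 at 10.6 ± 8.3 CPM. Cd36 was over 3 counts in 7 of the 18 organoid libraries. Against m-ICc12, 8 of 9 tested genes were higher in organoids and Apoc2 was not called, where 60.9% of all 12962 genes tested were called in either direction. The median log2 fold change of the 9 genes was 7.78, beside 0.03 over all genes tested. Against MEFs, 9 of 9 tested genes were higher in organoids, where 67.2% of 13144 genes were called, and the median was 6.92 beside 0.03.

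Apob, which encodes the structural protein of the chylomicron, had 314.7 to 686 CPM (median 440) in the 9 organoid libraries labelled untreated. It had 1.17, 0.898 and 0.264 CPM in m-ICc12 and 0.712, 4.94 and 1.34 CPM in MEFs. All organoid libraries lay far above all of the others, and the log2 fold change was 9.24 ± 0.49 (SE) against m-ICc12 (edgeR adjusted p = 6.94e-11) and 7.62 ± 0.58 against MEFs (adjusted p = 6.87e-09). Apoa1, the main protein of high density lipoprotein, had 192.9 to 1136 CPM (median 555.9) in these organoids. It had 1.08, 2.19 and 0.192 CPM in m-ICc12 and 0.285, 12.4 and 0.959 CPM in MEFs. The groups did not overlap, with log2 fold changes of 8.90 ± 0.79 (edgeR adjusted p = 4.86e-08) and 6.92 ± 0.99 (adjusted p = 1.3e-05). The MEF library with 12.4 CPM was R2, the one with hepatocyte transcripts. Apoa4, an apolipoprotein made mostly in the small intestine of mammals, had 85.8 to 848 CPM (median 293.4) in organoids. It had 1.08, 0.504 and 0.457 CPM in m-ICc12 and 0.404, 2.04 and 0.959 CPM in MEFs. Its log2 fold changes were 9.30 ± 0.88 and 8.51 ± 0.89 (edgeR adjusted p = 1.1e-07 and 3.7e-07).

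The 2 small C apolipoproteins differed from each other in the reference cells. Apoc3, which encodes an inhibitor of triglyceride clearance, had 14.4 to 119.4 CPM (median 37.4) in organoids. It was at 25, 2 and 2 counts in m-ICc12 and at 1, 44 and 2 counts in MEFs, so that only M1 and R2 were over the floor. The log2 fold changes were 7.78 ± 0.99 and 7.04 ± 1.00 (edgeR adjusted p = 3.7e-06 and 1.17e-05). Apoc2, which encodes the activator of lipoprotein lipase, had 3.59 to 29.7 CPM (median 11.6) in organoids and 12.4, 8.32 and 2.5 CPM in m-ICc12. The groups overlapped, and the log2 fold change of 1.14 ± 0.60 was not called (edgeR adjusted p = 0.11). It was called without Z919 (1.27, adjusted p = 0.0461), with the libraries of the other label (1.32, adjusted p = 0.0183) and with the 2 libraries of each culture summed (1.07, adjusted p = 0.0333), and was between 0.73 and 1.67 without single cultures. In MEFs Apoc2 was at 0, 29 and 1 counts, with the 29 counts in R2, and m-ICc12 exceeded MEFs by 4.82 ± 1.12 on the log2 scale (edgeR adjusted p = 0.00248). This value rested on R2 and was 4.25 to 8.72 without single libraries, called each time, with the upper value from MEF libraries at 0 and 1 counts. The Apoc2 exons share 646 bases with Gm44805, an annotated protein coding gene on the same strand that was not among the counted genes.

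Mttp had 222 to 588.1 CPM (median 312) in organoids. It had 8.82, 13 and 6.73 CPM in m-ICc12 and 3.58, 4.15 and 3.84 CPM in MEFs. All 3 cell types separated without overlap, and its log2 fold changes of 5.37 ± 0.39 and 6.66 ± 0.40 (edgeR adjusted p = 4.51e-09 and 2.97e-10) had the smallest standard errors after Dgat1. Dgat1 had 96.8 to 214.5 CPM (median 143.8) in organoids, 49.8, 39.3 and 36.3 CPM in m-ICc12 and 17.5, 21.9 and 23.1 CPM in MEFs. Again no group overlapped another, but the log2 differences were small for these genes, with 1.89 ± 0.25 and 2.89 ± 0.27 (edgeR adjusted p = 6.77e-06 and 9.51e-08).

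Fabp2, the intestinal fatty acid binding protein, had 101.2 to 312.8 CPM (median 157.3) in organoids. It was at 12, 8 and 6 counts in m-ICc12 and 9, 5 and 9 counts in MEFs, or at most 0.352 CPM. Its log2 fold changes were the largest of the members against m-ICc12 and against MEFs in these fits, with 9.77 ± 0.59 and 9.77 ± 0.60 (edgeR adjusted p = 3.54e-10 and 4.31e-10). Fabp1, the liver fatty acid binding protein, which the proximal intestine also makes, had only 1.91 to 26.8 CPM (median 11) in organoids. It was at 25, 4 and 0 counts in m-ICc12 and at 0, 32 and 0 counts in MEFs, the 32 counts being those of R2. The log2 fold changes were 5.33 ± 1.24 and 5.26 ± 1.33 (edgeR adjusted p = 0.00144 and 0.00243). The values of Fabp1 and Apoc3 against m-ICc12 rested on M1, where Fabp1 and Apoc3 both had 25 counts. Without single libraries they were 4.74 to 7.79 for Fabp1 and 7.24 to 10.14 for Apoc3, called each time, the upper values being without M1, where so few counts remain that they set no bound. Leaving Cd36 aside, every member had more CPM in M1 and M2, which held hepatocyte transcripts, than in M3, apart from Apoc3 in M2. Dgat1 was among them, with 49.8, 39.3 and 36.3 CPM in M1, M2 and M3. Several of these values rest on few counts, and the part of the hepatocyte transcripts was not tested. Cd36, the scavenger receptor for long-chain fatty acids, was not tested. It was at 0 counts in 4 of the 9 organoid libraries labelled untreated and at 3 or fewer in 7, at 3, 5 and 0 counts in m-ICc12, and at 0 counts in all 3 MEF libraries, which allows up to 3 counts in each. The adipocyte and endothelial markers, cell types known for high Cd36, summed to at most 1.25 and 0.596 CPM in any organoid library. Where Cd36 was over 3 counts, the adipocyte sum exceeded it in Z918 (1.25 against 0.834 CPM) and Z917 (0.799 against 0.329 CPM), both labelled TNF-treated. It was lower in Z912 (0.446 against 0.574 CPM) and Z909 (0.0302 against 0.905 CPM) of that label. The sum was 0 in both Z913 libraries and in Z918 labelled untreated. The part of adipocyte transcripts in Cd36 was not tested.

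**Figure D1:**
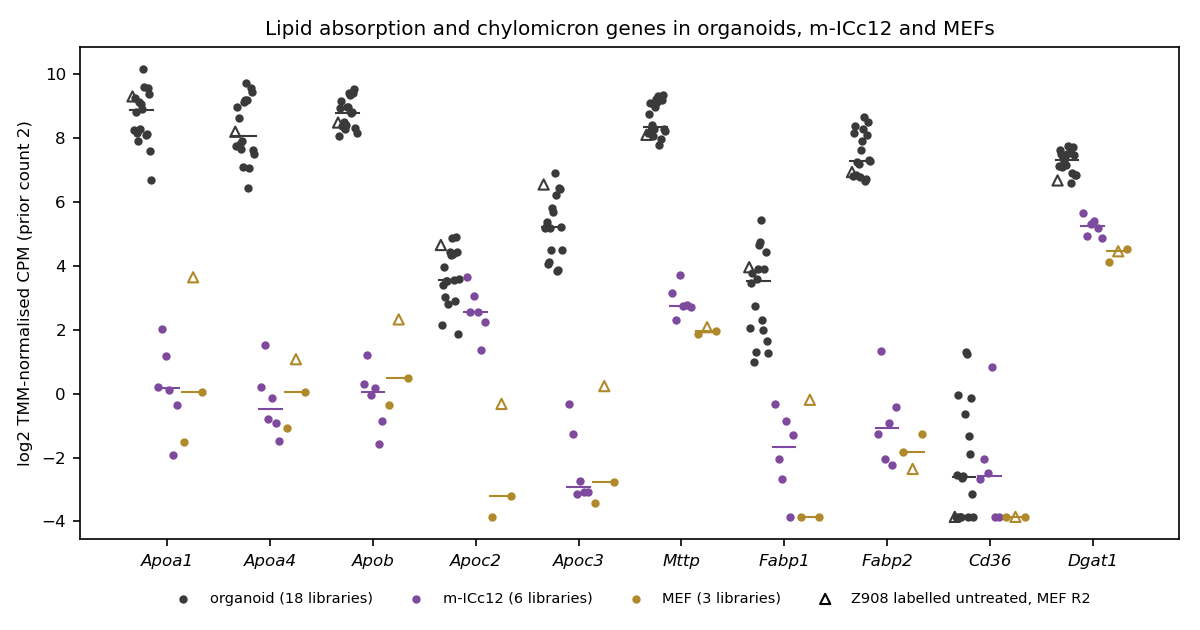
Levels of the 10 genes (log2 TMM-normalised CPM, prior count 2) in the 18 organoid, 6 m-ICc12 and 3 MEF libraries, each point 1 library of either label and each bar the median. Open triangles are the Z908 library labelled untreated and MEF R2. All members other than Apoc2 and Cd36 lie in organoids above both reference cells, Dgat1 differs least among them, and R2 is the highest MEF library for Apoa1, Apoa4, Apob, Apoc2, Apoc3, Mttp and Fabp1.

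Leaving out Z908, Z919 and R2 kept the call of 9 of 9 tested genes against MEFs, among 8349 genes called. The log2 difference of Apoa1 from MEFs then was 10.04 and that of Apob 8.98, while Mttp and Dgat1 moved little, to 6.82 and 3.04. For Apoc2, Apoc3 and Fabp1 the 2 remaining MEF libraries held at most 2 counts, so no fold is given. Between m-ICc12 and MEFs, 3 of 6 tested genes were called, all higher in m-ICc12, with 59.3% of 12830 genes called. They were Apoc2, Mttp (1.25 ± 0.39, edgeR adjusted p = 0.0146) and Dgat1 (0.96 ± 0.20, adjusted p = 0.00114). Mttp was not called without M2 (0.95, adjusted p = 0.0832) or with the libraries of the other label (0.65, adjusted p = 0.252). Apoa1 was at −2.0 ± 1.16 (adjusted p = 0.156), and its sign rested on R2, without which it was 0.91 (adjusted p = 0.593). Without R1 it was called, at −2.53 (adjusted p = 0.0387), as was Apob with all 27 libraries in 1 fit (−1.62, adjusted p = 0.0313). In MEF R2, all 17 hepatocyte genes were over 3 counts, with Alb at 54.5 CPM. The part of these transcripts in the MEF values was not tested, but for Apoa1, Apoa4 and Apob the distance from the organoids was larger without R2, Z908 and Z919.

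Per kilobase of annotated exon, the 18 organoid libraries ordered the members as Apoa1 (385.5 CPM per kb), Fabp2 (211.9), Apoa4 (209.5), Mttp (66.3), Dgat1 (51.1), Apoc3 (47.2), Apob (33.0), Fabp1 (22.9), Apoc2 (18.5) and Cd36 (0.121). Some neighbours in this order did not separate beyond the spread over the 9 cultures. Fabp2 was above Apoa4 in 5 of 9 cultures, with a mean log2 ratio of 0.15 ± 0.44 (SD), and Fabp1 above Apoc2 in 5 of 9, with 0.01 ± 0.64. Dgat1 against Apoc3 (6 of 9 cultures, 0.35 ± 0.82) and Apoc3 against Apob (7 of 9, 0.32 ± 0.80) also lay within their spread, and Apob against Fabp1 (7 of 9, 0.89 ± 0.89) and Mttp against Dgat1 (8 of 9, 0.32 ± 0.31) were near it. Apoa1 was above Fabp2 in 8 of 9 cultures (0.82 ± 0.60), and the step from Apoa4 down to Mttp held in 9 of 9 (1.47 ± 0.47). The exon lengths are those of GENCODE vM21, an annotation close to but not the same as the release used for counting.

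The surrounding pathway was read from 5 lists of other genes. All 13 of 13 genes of uptake and intracellular transport were higher in organoids than in m-ICc12, and 13 of 13 than in MEFs, with median log2 differences of 5.12 and 3.55. Npc1l1, the sterol transporter of the brush border, differed by 9.46 ± 0.51 from m-ICc12, Dbi, an acyl-CoA binding protein, by 1.75 ± 0.12, and Acsl5, an acyl-CoA synthetase, by 0.78 ± 0.18 (edgeR adjusted p = 8.98e-11, 2.95e-09 and 0.00116). Triglyceride and sterol ester synthesis was mixed, with 5 of 10 genes higher and 2 lower than in m-ICc12 and 8 higher and 1 lower than in MEFs. Soat1, which esterifies cholesterol, was higher by 4.51 ± 0.18 and Lpcat3, which remodels phospholipids, by 0.82 ± 0.20, while Gpat4 was lower in organoids by −0.50 ± 0.11 (adjusted p = 2.33e-12, 0.00209 and 0.000968).

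Lipoprotein assembly and export outside the 10 genes gave 6 of 14 tested genes higher and 1 lower against m-ICc12, and 7 of 13 higher and 1 lower against MEFs. The list holds Apoa2, Apoa5, Apoc1 and Apoe, which were high in Z908, and without Z908, Z919 and R2 it gave 6 of 14 and 9 of 13 higher and 1 lower in each comparison. P4hb, the partner subunit of the Mttp protein in its transfer complex, was at 1440 ± 129.5 CPM (SD over 18 organoid libraries of both labels). P4hb was 0.85 ± 0.10 higher on the log2 scale in organoids than in m-ICc12 (edgeR adjusted p = 1.4e-06), but not called against MEFs (0.13 ± 0.09, adjusted p = 0.245). Surf4, a cargo receptor of the endoplasmic reticulum, differed by 0.26 ± 0.10 and Plin3 by 0.08 ± 0.16 from m-ICc12 (adjusted p = 0.029 and 0.67). In lipid breakdown and oxidation, 3 of 10 genes were higher and 3 lower than in m-ICc12, and 8 of 10 higher and 1 lower than in MEFs. Cpt1a, the entry step of fatty acids into mitochondria, was lower in organoids by −1.62 ± 0.16 (adjusted p = 1.49e-07) but higher than in MEFs by 1.76 ± 0.19 (adjusted p = 4.17e-07). Acadvl was not called against m-ICc12 (−0.03 ± 0.16, adjusted p = 0.899). Acadm was lower by −0.52 ± 0.16 (adjusted p = 0.00867).

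Of 16 regulators of lipid genes, 10 were higher and 3 lower in organoids than in m-ICc12, and 14 higher and 1 lower than in MEFs. Hnf4a, a nuclear receptor that drives enterocyte and hepatocyte genes, had 983.8 to 1168 CPM (median 1066) in the organoids labelled untreated, 76.1 to 168.6 CPM in m-ICc12 and 1.42 to 2.11 CPM in MEFs. It thus lay 3.05 ± 0.20 and 9.29 ± 0.17 above them on the log2 scale (edgeR adjusted p = 1.11e-09 and 1.35e-15). Srebf2, which controls sterol synthesis genes, was lower in organoids than in m-ICc12 by −0.68 ± 0.13 (adjusted p = 0.000317). Srebf1 was at 248.4 ± 44.4 CPM (SD over 18 organoid libraries of both labels).

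The next question was how far single organoid cultures differed. With both libraries of each culture and the label as a covariate, 8 of 9 tested members differed between the 9 cultures, and 12% of all 12104 genes tested did. Apoa4 had the smallest p (edgeR F = 62.5, adjusted p = 6.08e-15), followed by Mttp (55.5, 3.32e-14), Apoa1 (47.2, 2.49e-13), Fabp2 (42.8, 9.92e-13), Apob (35.7, 9.79e-12), Apoc3 (23.8, 1.52e-09), Dgat1 (9.68, 3.19e-05) and Fabp1 (8.52, 0.000103). Apoc2 was not called (F = 3.04, adjusted p = 0.0772), but it was without Z908 (F = 5.32, adjusted p = 0.00472) and without Z908 and Z919 (6.57, 0.00248). The 8 calls were also made by DESeq2, and the count lay between 8 and 9 when single cultures were left out.

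The order of the cultures was alike across the members. Z913 (SE) held the first or second place for all 9 members other than Cd36, and Z918 (GF) for 8 of 9, its exception being Fabp1 with the third place. Z917 (GF) was among the lowest 3 for 8 of 9, and Z911 (SE) and Z919 (GF) for 6 of 9 each. SE and GF thus each held a culture among the highest and one among the lowest. No share over all genes is given for these places, so the order need not be particular to the members.

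Leaving out Cd36, whose culture means ran from 0 to 2.33 CPM, the widest member was Fabp1, with culture means from 2.71 CPM in Z919 to 35.2 CPM in Z913, a ratio of 13.0. The 3 genes of the chromosome 9 cluster came next, with ratios of 6.70 for Apoc3 (14.4 CPM in Z917 to 96.7 CPM in Z913), 6.64 for Apoa4 (109.7 CPM in Z917 to 728.6 CPM in Z918) and 6.47 for Apoa1 (147.6 CPM in Z919 to 955 CPM in Z913). The narrowest was Dgat1 at 1.85, with 108.5 to 200.8 CPM. Between them lay Fabp2 (3.47), Apoc2 (3.32), Mttp (2.62) and Apob (2.35).

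The spread between culture means exceeded that between the 2 libraries of a culture for all members but Apoc2. For Mttp the SD on the log2 scale was 0.54 between cultures and 0.08 within them, for Apoa4 0.99 and 0.29, and for Apob 0.47 and 0.13. For Apoc2 it was 0.71 and 0.82. Fabp1 had a wide spread on both sides, with 1.24 and 0.87. No share over all genes is given for this comparison of spreads.

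**Figure D2:**
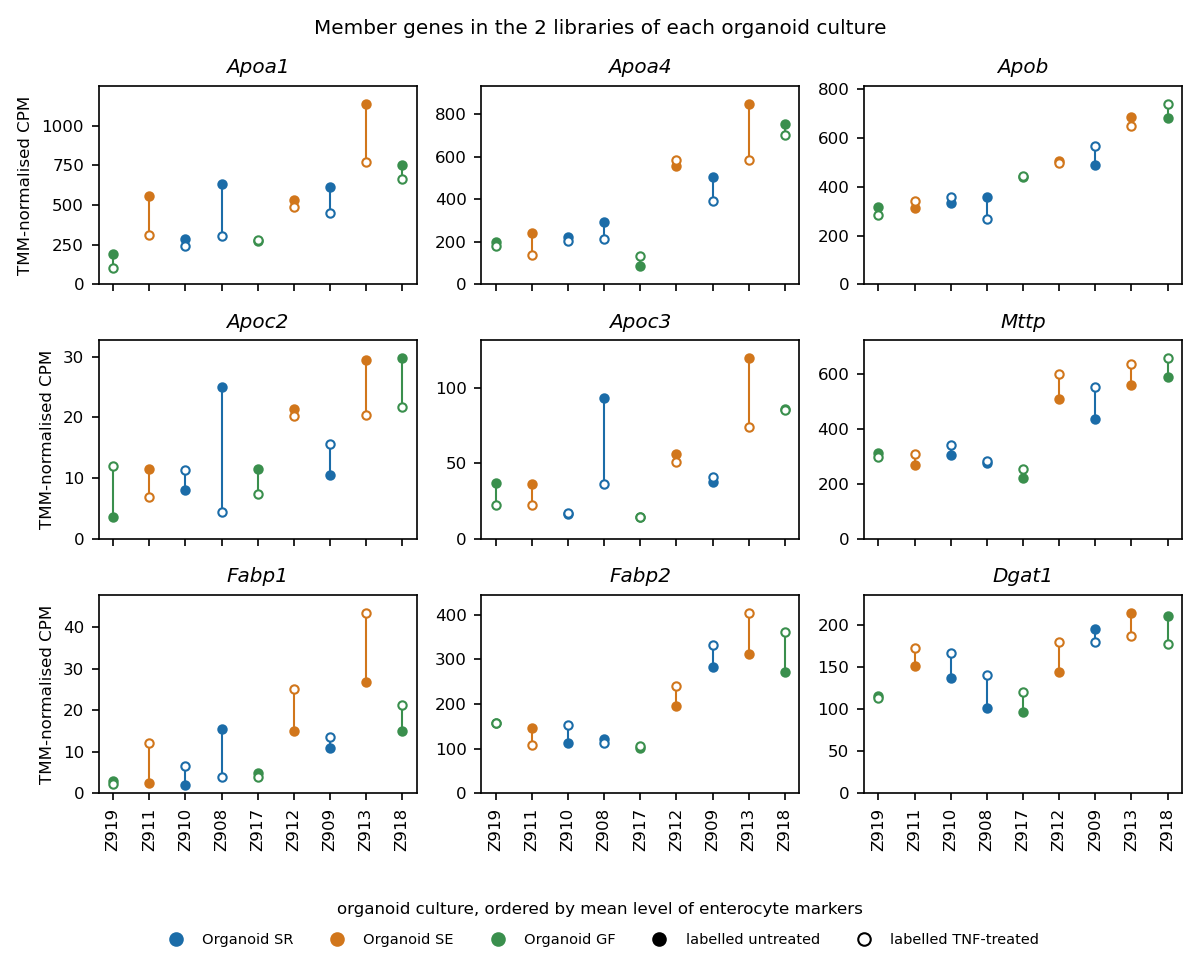
TMM-normalised CPM of 9 members in the 2 libraries of each organoid culture, labelled untreated (filled) and TNF-treated (open), joined by a line. Cultures are ordered from left to right by their mean level of 11 enterocyte markers and coloured by facility. Z913 and Z918 are high in every panel, and Z908 has the longest line for Apoc2 and Apoc3.

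Marker lists of several epithelial cell types also differed between the cultures, with calls for 11 of 11 enterocyte, 7 of 7 stem and proliferation, 6 of 7 goblet, 3 of 5 Paneth, 2 of 6 enteroendocrine and 0 of 2 tested villus tip enterocyte markers. The 3 villus tip markers summed to 6.67 CPM in Z918 and 22.5 CPM in Z911, the lowest and the highest of the libraries labelled untreated. In the libraries labelled TNF-treated they summed to 10.9 CPM in Z918 and 8.96 CPM in Z911, so this short list gave no steady order of these cultures. The mean log2 CPM of the enterocyte markers fell into separate ranges, 7.43 to 7.88 in Z918, Z913, Z909 and Z912 and 5.96 to 6.75 in Z917, Z908, Z910, Z911 and Z919, a split seen in these data. The first 4 cultures were above each of the other 5 for 7 of the 9 members, all but Apoc3 and Dgat1, and for 3.84% of 11914 expressed genes. Without Z908 this held for 8 of 9, all but Dgat1, and for 5.10% of the genes. Of the pathway lists over all 9 cultures, it held for 8 of 13 genes of uptake and transport and 3 of 10 of triglyceride and sterol ester synthesis. It also held for 4 of 12 genes of assembly and export, 2 of 9 of breakdown and oxidation and 3 of 16 regulators. Without Z908 it held for 4 of 10 synthesis and 4 of 9 breakdown genes, with the other lists unchanged. For the stem and proliferation markers the opposite order, with the 4 cultures below the other 5, was found for 1 of 7 genes. Over the 9 cultures, 1.54% of the 11914 expressed genes had that opposite order. With 4 and 5 cultures in the separate ranges, no correlation within them is given, and the part of enterocyte content in the members' differences was not tested. Here as elsewhere, fewer enterocytes in a culture and less of the transcript per enterocyte cannot be told apart in bulk RNA.

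**Figure D3:**
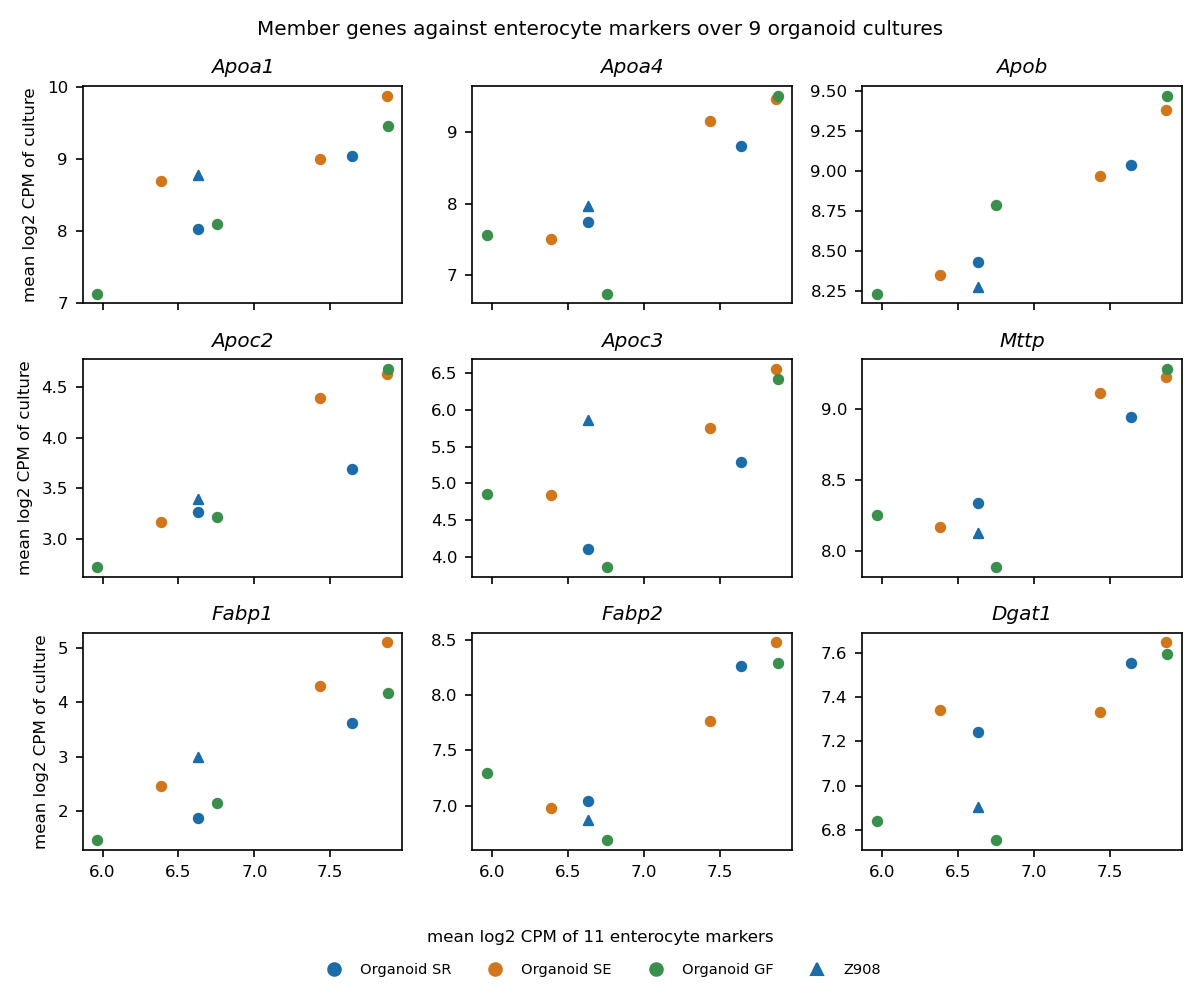
Mean log2 CPM of each member in a culture against the mean log2 CPM of 11 enterocyte markers, 1 point for each of 9 organoid cultures, coloured by facility, with Z908 as a triangle. The cultures form separate ranges on the horizontal axis, 5.96 to 6.75 and 7.43 to 7.88, and Z908 lies high for its markers in Apoc3.

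Over the 9 culture means, the genes with the pattern most like a member were searched among 11914 expressed genes, where the separate ranges above weigh on every coefficient. Mttp was most like Scd1 (Pearson r = 0.989), Btnl1 (0.986) and Dhrs1 (0.985), and Apoa4 like Khk (0.981), Btnl1 (0.980) and Tkfc (0.976). Apob was most like Cyp2c29 (0.986), Bcar3 (0.985) and Hpgd (0.983). Apoa1 was most like Ttc7b (0.977), Acot11 (0.975) and Phospho1 (0.971), and Fabp2 like Cyp4v3 (0.981), Gstm3 (0.978) and Fam84a (0.973). Fabp1 was most like the antimicrobial peptide gene Leap2 (0.978), Slc35c2 (0.970) and the trehalase gene Treh (0.963). Apoc2 was most like Vil1 (0.968), which encodes the microvillus protein villin, Phyh (0.963) and Pdzk1 (0.958). Apoc3 was most like Pgd (0.937), Hsd17b4 (0.932) and Sidt2 (0.928), and Dgat1 like Surf4 (0.962), Anxa13 (0.955) and Nat8f4 (0.954). Cd36, at or near the floor in most cultures, was nearest to Trp53inp2 (0.973), Pls1 (0.956) and Cdk18 (0.947). Without Z908, Apoa4 and Mttp were the nearest gene to each other (r = 0.998 over 8 cultures).

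For Cd36, 1 culture held the most reads. Z913 had 60 and 61 counts, or 2.38 and 2.29 CPM, in the libraries labelled untreated and TNF-treated. The other libraries over 3 counts were those labelled TNF-treated of Z909 (30 counts), Z918 (26), Z912 (18) and Z917 (7) and the one labelled untreated of Z918 (6). The remaining 11 of 18 libraries held 0 to 3 counts. In m-ICc12 the M2 library labelled TNF-treated had 64 counts (1.73 CPM) and the others 0 to 5.

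The Z908 pair, with hepatocyte transcripts in 1 library, stood apart for several members. Its library labelled untreated exceeded the one labelled TNF-treated 5.75 times for Apoc2 (25.1 and 4.36 CPM), 3.82 times for Fabp1 (15.5 and 4.05 CPM), 2.58 times for Apoc3 (93.4 and 36.2 CPM) and 2.08 times for Apoa1 (632.1 and 303.2 CPM). In the other 8 cultures the same ratio lay between 0.301 and 1.64 for Apoc2, 0.2 and 1.29 for Fabp1, 0.907 and 1.65 for Apoc3 and 0.979 and 1.89 for Apoa1, so that Z908 lay outside the range of the others for these 4 genes. Apob also lay outside it, with 1.33 in Z908 (358.5 and 268.8 CPM) and 0.86 to 1.11 in the others. For Fabp2 the ratio was 1.09, inside the range of 0.74 to 1.33, for Apoa4 1.37, inside 0.643 to 1.77, and for Mttp 0.971, inside 0.788 to 1.04. Dgat1 lay outside on the other side, with 0.724 in Z908 (102 and 140.8 CPM) and 0.798 to 1.19 in the other cultures. Apolipoprotein genes that the other organoid libraries expressed little were also high in that library, with Apoa2 at 63.3 CPM, Apoa5 at 27.9 CPM, Apoc1 at 24.7 CPM and Apoe at 194.2 CPM, beside Alb at 597.2 CPM. The medians of the 9 libraries labelled untreated were 2.02, 0, 0.347, 11.8 and 2.25 CPM for these 5 genes. The part of liver transcripts in the member values of this library was not tested. No share over all genes is given for pairs outside the range of the others, so the place of Z908 need not be particular to the members.

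The label comparison asked whether the 2 libraries of a culture differed. Without the pairing, 0 of 9 tested members were called in organoids, where 1.39% of 12104 genes were. With the culture as a block, which fits the origin of both libraries in 1 mouse, 1 of 9 members was called and 3.28% of all genes. That member was Apoa1, which was lower in the library labelled TNF-treated by −0.49 ± 0.08 on the log2 scale (edgeR adjusted p = 4.08e-05, against −0.47 ± 0.30 and adjusted p = 0.753 without the block). It was lower in 8 of 9 cultures, from 192.9 to 102.3 CPM in Z919, 632.1 to 303.2 CPM in Z908, 555.9 to 308.3 CPM in Z911, 1136 to 774 CPM in Z913, 614.2 to 452.3 CPM in Z909, 283.2 to 240.6 CPM in Z910, 750.7 to 660.9 CPM in Z918 and 533.7 to 485.9 CPM in Z912. Z917 was the exception, with 271.8 and 277.6 CPM. The 2 cultures with the largest drops on the log2 scale, Z908 and Z919, were also those with the highest hepatocyte transcripts in the library labelled untreated. Z917, which had no drop, was next in these transcripts, with 77.2 CPM summed. Without Z908 and Z919 the Apoa1 difference was −0.34 (edgeR adjusted p = 0.00141). Leaving out single cultures gave −0.55 to −0.41, called each time.

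Mttp had higher values under the TNF label in 8 of 9 cultures, with medians of 312 CPM labelled untreated and 341.3 CPM labelled TNF-treated. The blocked difference of 0.16 ± 0.05 was not called (edgeR adjusted p = 0.068), but it was without Z919 (0.18, adjusted p = 0.0311) and without Z908 and Z919 (0.21, adjusted p = 0.0206). Apoa4 was at −0.21 ± 0.08 (adjusted p = 0.176), and −0.32 without Z917 (adjusted p = 0.00298). Apoc3 was at −0.39 ± 0.13 (adjusted p = 0.103), Fabp2 at 0.14 ± 0.07 (0.391), Fabp1 at 0.42 ± 0.29 (0.585), Dgat1 at 0.10 ± 0.07 (0.592), Apoc2 at −0.23 ± 0.26 (0.788) and Apob at −0.01 ± 0.05 (0.955) with the block.

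**Figure D4:**
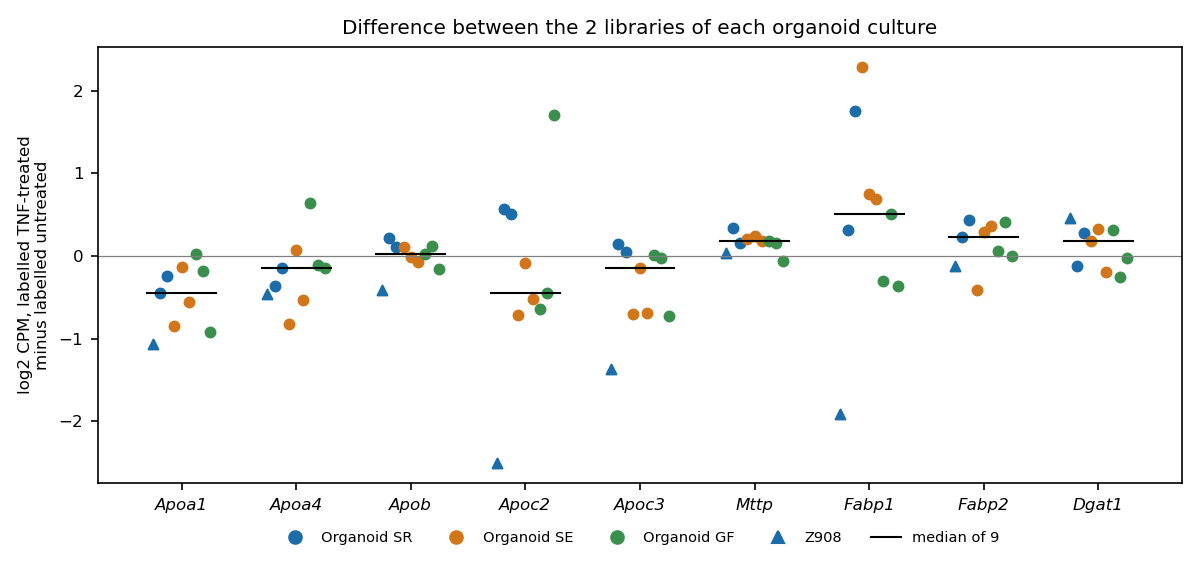
Difference in log2 CPM between the libraries labelled TNF-treated and untreated of each organoid culture, for 9 members, coloured by facility, with Z908 as a triangle and the median of 9 cultures as a bar. Apoa1 lies below 0 in 8 of 9 cultures and Mttp above 0 in 8 of 9, and Z908 is the lowest point for Apoa1, Apob, Apoc2, Apoc3 and Fabp1.

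Other lipid genes were called in the same organoid comparison without the block. They were Slc27a2, a fatty acid transport protein (−0.64 ± 0.11, edgeR adjusted p = 0.000828), Pnpla2, the adipose triglyceride lipase (−0.47 ± 0.10, adjusted p = 0.0066), and Cpt1a (0.56 ± 0.11, adjusted p = 0.00441), the first 2 named after their values were seen. Of the lists, 1 of 13 uptake genes and 2 of 9 tested breakdown genes were thus called, and 0 of 10 synthesis genes, 0 of 13 assembly genes and 0 of 16 regulators. Beside them, 2 of 7 stem and proliferation markers (Olfm4 and Ascl2) and 4 of 9 tested hepatocyte markers were called lower under the TNF label, and 0 of 11 enterocyte markers were called. Without Z908 and Z919, 0 of 7 tested hepatocyte markers were called.

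In m-ICc12, 0 of 7 tested members were called by label, where 0.110% of 11861 genes were (13 genes, with 556 at an unadjusted p under 0.05). Fabp2 was higher in the library labelled TNF-treated in 3 of 3 cultures (14, 17 and 14 counts against 12, 8 and 6) with a log2 difference of 2.35 ± 1.34 (edgeR adjusted p = 0.996). Mttp was lower in 3 of 3 (4.88, 6.66 and 6.53 CPM against 8.82, 13 and 6.73 CPM) with −0.63 ± 0.43 (adjusted p = 0.996). The M1 library labelled TNF-treated was the shallowest of the series, with 6071103 counts.

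The facilities were compared in the libraries labelled untreated. Between GF and the 6 SPF organoids, 0 of 9 tested members were called, and 0.0325% of 12315 genes were (4 genes by edgeR, 491 at an unadjusted p under 0.05 and 21 by DESeq2). The log2 differences ran from −0.67 ± 0.70 for Fabp1 and −0.63 ± 0.37 for Apoa1 to 0.10 ± 0.24 for Apob, with adjusted p of 1 for all 9. Single cultures weighed on them. Without Z918 Apoa1, Apoa4, Fabp1 and Apob were at −1.43, −1.65, −1.61 and −0.24, without Z919 Apoa1 was at −0.30, without Z917 Apoa4 was at 0.10 and without Z913 Fabp1 was at −0.27, none of them called. Between SE and SR, 0 of 9 members and 0% of 12219 genes were called (486 genes at an unadjusted p under 0.05, 8 genes by DESeq2). The 9 differences had positive values, from 0.23 ± 0.22 for Dgat1 to 0.68 ± 0.34 for Apoa4 (adjusted p = 1 for all 9), and the Z913 culture weighed on them, since without it Apoc3, Fabp1 and Fabp2 were at −0.09, −0.12 and −0.02. Each facility had 3 cultures, and a p that misses the threshold does not show that the facilities were alike.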

How the data were processed

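RNA of 18 organoid, 6 m-ICc12 and 3 MEF libraries was sequenced from poly-A libraries as single-end reads. The labels call the kit stranded and the methods do not. Trimming, alignment to GRCm38 with STAR (2.5.4b in the submitters' processing notes) and counting per gene were done by the authors. The notes name featureCounts and the methods another counter, and the use of strand and of multi-mapping reads is not given in the sources used here. The deposited values are whole-number counts without normalization for 22524 genes, of which 22291 matched GENCODE vM21. Shared exon bases could therefore matter for Apoc2 (Gm44805, same strand), Apoa4 (antisense genes) and Mttp (457 bases with Trmt10a, opposite strand).

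Groups and pairs follow the sample labels. Computations used R 4.3.3, edgeR 4.0.16 (TMM, quasi-likelihood F-test) and DESeq2 1.42.0, with Python 3.11.15, pandas 2.3.3, numpy 2.4.6 and matplotlib 3.10.9 for summaries and figures. Each fit held only the groups compared, without covariate apart from the label in the test of the 9 cultures. Libraries of a culture come from 1 mouse, and their deviations from the mean of their label correlated at r = 0.171 on average (0.0821 to 0.311, 9 pairs) against −0.02 for other pairs. Log2 CPM used a prior count of 2. No 2 libraries were identical. Nothing states that the m-ICc12 and MEF replicates were separate cultures beyond their numbers, so their p-values may cover technical spread only.

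The members and the lists were chosen with earlier results of these data known. All 10 members are named, with the 3 genes of highest mean CPM of each pathway list and the 3 genes most like each member. The label fit without the block, the culture test and the fit of organoids against m-ICc12 were run on simulated counts, with outcomes not given here. The simulated label fit held no culture effect and the blocked fit was not simulated. The simulation therefore cannot speak for the blocked Apoa1 call. Alternatives were DESeq2, all genes with at least 1 count, the thresholds of the study (a log2 change of 0.5 or more with p up to 0.05, unadjusted), all 27 libraries in 1 fit, the culture as a block, the other label, summed libraries and leaving out each culture. Leaving out the libraries of Z908, Z919 and R2, which held the most hepatocyte transcripts, and the block without single cultures, were added after the data were seen.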

Additional observations from a re-analysis of the deposited data

Results flagged for a closer look

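Cd36 in Z913 was far from the other organoid cultures under both labels. It stood at 2.38 CPM in the library labelled untreated, where the other 8 libraries lay at or under 0.199 CPM, and at 2.29 CPM in the library labelled TNF-treated, where the next highest, Z909, had 0.905 CPM. The flag presumes that chance alone marks about 1 in 20 groups, a rate that was not computed for counts this low. Both flags come from 1 culture. Z913 also held the first or second place for all 9 other members, for which no share over all genes is given.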

How the results depend on the processing

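The values of single genes under the alternatives kept their direction and their side of the threshold in 998 cases, passed the threshold in 22 more, no longer passed it in 2, and in 33 changed sign while not called in either fit. No called value changed its sign. The count of members called moved by over 1.5 times in the organoid TNF label comparison alone, from 0 to 1 with the culture as replicate block, to 1 to 2 with the block and a single culture left out (2 without Z917, which adds Apoa4, and without Z919, which adds Mttp) and to 2 with the block and without Z908 and Z919. The block changed no other member's call, and in m-ICc12, where same-numbered libraries correlated at 0.0311 on average (−0.00664 to 0.0925) and share only a number, it changed 0 of 7. The number of all genes called moved more. In the organoid TNF label comparison it went from 168 to 352 by the study's thresholds, 397 with the block, with the block and 1 culture left out 358 (Z908), 328 (Z909), 368 (Z910), 376 (Z911), 339 (Z912), 330 (Z913), 367 (Z917), 340 (Z918) and 325 (Z919), and 304 with the block without Z908 and Z919. In the m-ICc12 TNF label comparison it went from 13 to 46 by DESeq2, 30 over all genes with at least 1 count, 445 by the study's thresholds, 29 with all 27 libraries, 6 with the block and 15 to 93 without single cultures, 93 being without M2. For GF against SPF organoids it went from 4 to 21 by DESeq2, 313 by the study's thresholds, 29 with all 27 libraries, 7 with summed libraries, 2 without Z908 and Z919, and 2 to 5 without single cultures, 2 being without any 1 GF culture. For SE against SR it went from 0 to 8 by DESeq2, 5 over all genes with at least 1 count, 376 by the study's thresholds, 2 with all 27 libraries, 1 with the other label, 1 with summed libraries, and 0 to 35 without single cultures, 35 being without Z909, 6 without Z912 and 1 without Z908. The culture test went from 1448 to 2556 by DESeq2. The cause of these moves was not tested. Depth limits Cd36 in all groups and Apoc3, Fabp1 and Fabp2 in m-ICc12 and MEFs, where few counts carry each value.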
